A study of Mus musculus with 6 samples.

Results

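The 82 genes described here encode heat shock proteins, their J-domain partners and the subunits of the cytosolic chaperonin. They are all symbols in the deposited tables that begin with Hsp90, with Hspa, Hspb, Hspd, Hspe or Hsph and a digit, with Dnaja, Dnajb or Dnajc and a digit, or with Cct2 to Cct8, plus Tcp1, out of 22800 symbols. RNA was measured in murine oviductal epithelial (MOE) cells of outbred CD1 mice. The 3 libraries of MOE LOW cells came from passages 8, 9 and 10, and the 3 libraries of MOE HIGH cells from passages 90, 103 and 113 of the same line, carried on in culture. The line had been pooled from the oviducts of several female mice aged 8 weeks, and all cells were grown in the same medium with serum, a growth factor, insulin and estradiol. Each group is therefore 1 line at 3 passages, and p-values measure the spread between passages and not between mice.

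Chaperones help other proteins to fold. HSP70 proteins bind short hydrophobic stretches of a client in a cycle driven by ATP, J-domain proteins bring clients to HSP70 and speed its ATP hydrolysis, and HSP110 proteins exchange its nucleotide. HSP90 takes over clients such as kinases and steroid receptors, chaperonins enclose a client in a barrel, and small heat shock proteins hold unfolded proteins without ATP. The cytosol, the endoplasmic reticulum (ER) and the mitochondrion each have their own HSP70, HSP90 and J-domain proteins. The cytosolic set is induced through heat shock factors, the set of the ER lumen through the unfolded protein response, and the chaperonin of the cytosol folds actin and tubulin.

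Values are in FPKM (fragments per kilobase of transcript, scaled to the number of mapped fragments). Of the 82 genes, 68 averaged 0.5 FPKM or more over the 6 libraries and were tested among 11621 genes with limma at an adjusted p of 0.05. The column headings inside the 6 tables name other passages or a locus, and libraries are called here by their sample records. The summed FPKM of the libraries ranged from 597486 to 770709, with the passages 113 and 90 at the ends. Of 10 epithelial markers, 4 were tested and 2 of these were higher in MOE HIGH. Of 7 tested secretory markers of the oviduct 2 were higher and 3 lower, and of 5 tested ciliated cell markers 1 was higher and 2 lower. Krt18 and Krt19 were abundant, Cldn3 and Esrp1 were listed at 0 in every library, and Epcam and Cdh1 were at most at 0.0821 FPKM. All 10 tested smooth muscle markers were lower in MOE HIGH, with a summed level of 10180 to 14670 FPKM in MOE LOW and 177 to 213 FPKM in MOE HIGH. Of 8 tested fibroblast markers 7 were lower, with sums of 725 to 1169 and 22.9 to 33.1 FPKM. The endothelial markers Cdh5, Tie1 and Vwf and the leukocyte markers Itgam, Emr1 and Cd3e were listed at 0 throughout. Of the other endothelial markers both that were tested were lower, and of 3 tested leukocyte markers 1 was higher and 1 lower. The endothelial sum was 3.25 to 8.46 FPKM in MOE LOW and 0.364 to 0.689 FPKM in MOE HIGH, and the leukocyte sum 63.5 to 100.4 and 34.8 to 51.2 FPKM. In bulk RNA, fewer cells of a type and less RNA per cell cannot be told apart.

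The chaperone genes divided by compartment. All 8 genes assigned to the ER lumen were lower in MOE HIGH, and 6 of the 8 mitochondrial genes were higher and none lower. The 43 tested cytosolic genes were divided, with 16 higher, 12 lower and 15 not past the test. Over all 68 tested genes 24 were higher (35.3%) and 25 lower (36.8%), beside a background of 24.3% higher and 32.1% lower among all genes tested. All 3 MOE HIGH values lay on 1 side of all 3 MOE LOW values for 54 of the 68 genes (79.4%), beside 64.0% of all genes. The median log2 fold change, MOE HIGH minus MOE LOW on the log2(FPKM + 1) scale, was -0.82 in the ER lumen, 0.46 in the mitochondria and 0.20 in the cytosol, against -0.05 over all tested genes. The cytosolic count rested on single libraries and on scaling. It was 8 higher without passage 8 or passage 10, 10 without passage 9 and 20 without passage 113, and with the libraries scaled to equal upper quartiles, whose library factors differed by -0.11 on the log2 scale between MOE HIGH and MOE LOW, it was 10 higher against 13 lower.

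**Figure D1:**
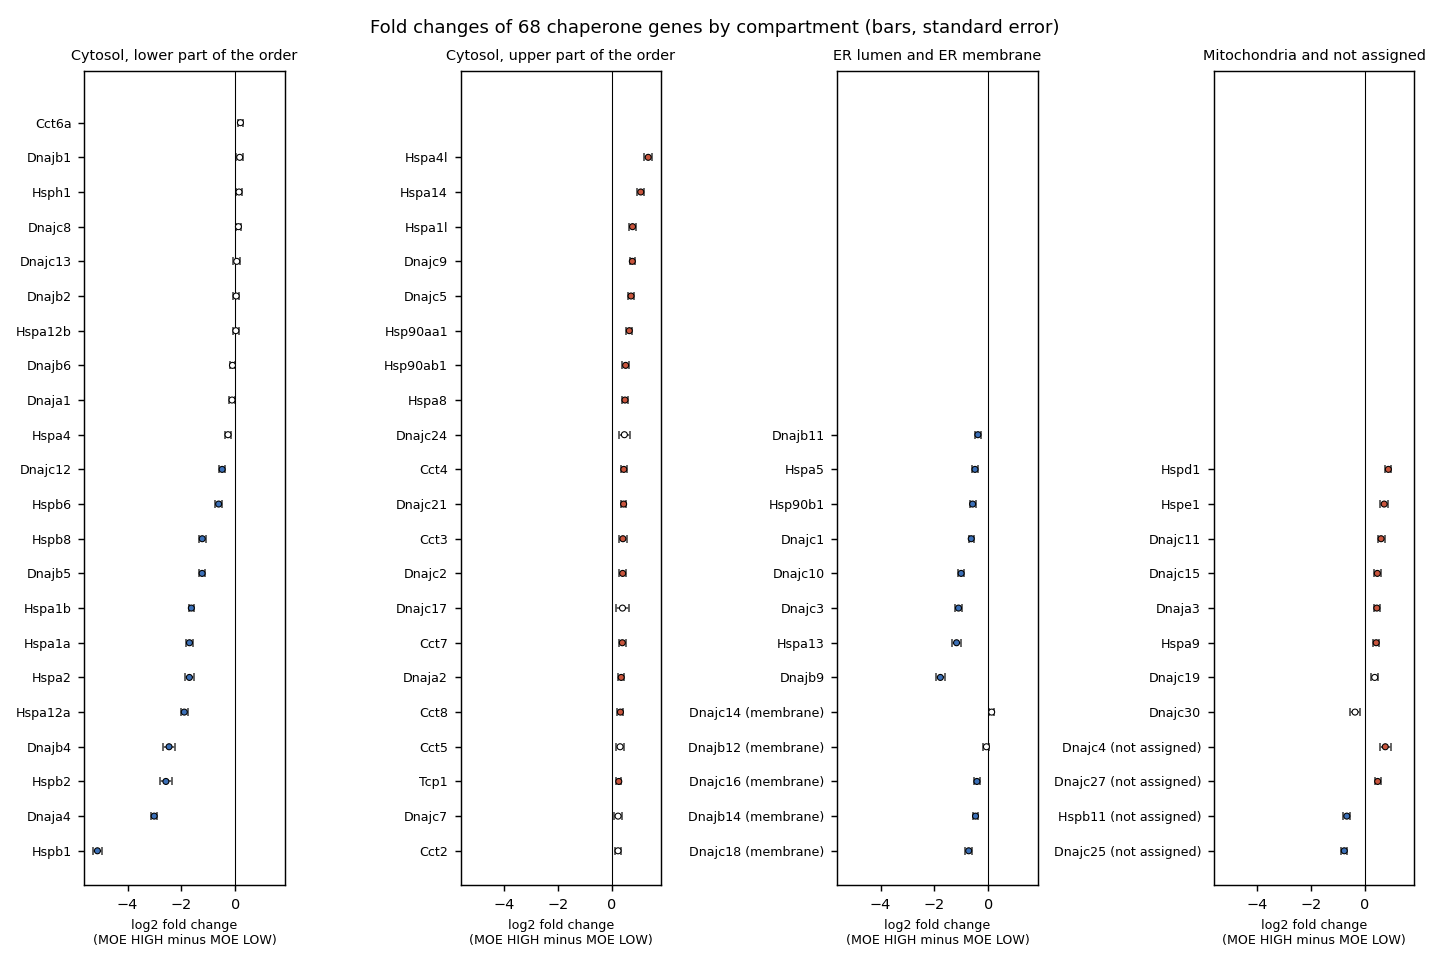
Log2 fold changes (x axis, MOE HIGH minus MOE LOW, log2(FPKM + 1)) of the 68 tested chaperone genes (y axis) by compartment, with standard errors as bars. Red points were higher, blue points lower and white points not past the test, and all 8 points of the ER lumen lie left of 0 while 7 of the 8 mitochondrial points lie right of it.

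Within the cytosol, higher calls were more frequent among the abundant genes. Of the 17 cytosolic genes that averaged 100 FPKM or more over the 6 libraries, 9 were higher (52.9%) and 1, Hspb1, was lower (5.88%). Of the 26 with a mean of 0.5 to 100 FPKM, 7 were higher (26.9%) and 11 lower (42.3%). Among all genes tested, from 0.5 FPKM up, 24.3% were higher and 32.1% lower. The shares among all genes of 100 FPKM or more were not taken. The 17 abundant genes included all 8 subunits of the cytosolic chaperonin, with 5 of the 9 higher calls. Of the 9 higher calls, only that of Hsp90aa1 held whichever library was left out. The split at 100 FPKM was made after the values were seen and was not tested. The abundant genes set the sum. All chaperone genes together made up 1.52, 1.54 and 1.60% of the summed FPKM of passages 8, 9 and 10. In passages 90, 103 and 113 they made up 1.67, 1.70 and 2.01%. Within MOE HIGH their summed FPKM was 12850, 12270 and 12000, while the library totals were 770709, 720500 and 597486. Every MOE HIGH library had a larger share than any MOE LOW library, while the most abundant genes did not all move the same way. The 5 most abundant genes in each MOE LOW library were Hspa8, Hsp90ab1, Hsp90b1, Hspa5 and Hsp90aa1, while in each MOE HIGH library the mitochondrial chaperonin genes Hspd1 and Hspe1 stood in place of the ER genes Hsp90b1 and Hspa5.

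In the ER lumen, Hspa5 encodes BiP, the HSP70 that binds nascent secretory proteins and holds the sensors of the unfolded protein response inactive. Hspa5 was at 655, 593 and 600.5 FPKM in passages 8, 9 and 10 and at 397, 499 and 425 FPKM in passages 90, 103 and 113. Every MOE HIGH library was below every MOE LOW library, and the gene fell by 0.49 on the log2 scale (standard error 0.13, adjusted p = 0.012), a call that was lost without passage 8 (adjusted p = 0.059). Hsp90b1, which encodes GRP94, the HSP90 of the ER lumen, was at 673, 618 and 648 FPKM in MOE LOW and 393, 449 and 459 FPKM in MOE HIGH. It also fell without overlap, by 0.58 (standard error 0.11, adjusted p = 0.0034). Hspa13, a microsome-associated HSP70, was at 20.0002, 19.2 and 22.2 FPKM and then 7.17, 7.71 and 10.97 FPKM, and fell by 1.18 (adjusted p = 0.00047).

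The promoters of Hspa5, Hsp90b1 and Dnajc3 are shown because they hold the ER stress response element, the sequence through which ATF6 and XBP1 act in the unfolded protein response. The motif searched was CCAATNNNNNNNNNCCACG on both strands of RefSeq windows of 300 bases, from 250 before to 50 after each gene start on GRCm38.p6, the patched form of the assembly mm10. A window was given for 67 of the 82 genes, and the motif was present in 3 of the 7 ER lumen genes with a window (42.9%), in 0 of 45 cytosolic and 0 of 5 mitochondrial genes, and in 0.137% of 27025 genes. Capitals mark the motif, in the direction of the gene.
Hspa5: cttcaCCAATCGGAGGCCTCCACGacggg
Hsp90b1, farther match: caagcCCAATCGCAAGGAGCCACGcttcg
Hsp90b1, nearer match: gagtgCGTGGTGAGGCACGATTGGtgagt
Dnajc3: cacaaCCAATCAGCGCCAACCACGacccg
The Hspa5 window lies at chr2:34772020-34772048 on the plus strand, inside an exon of a longer Hspa5 transcript of GENCODE M21, with its motif 47 to 65 bases before the RefSeq start. The Hsp90b1 windows lie at chr10:86705633-86705661 and chr10:86705528-86705556 on the minus strand, with motifs 194 to 212 and 89 to 107 bases before the start, and the Dnajc3 window at chr14:118937822-118937850 on the plus strand, with its motif 87 to 105 bases before the start. GENCODE M21 places these last 3 windows in no gene. A match of letters describes the window only.

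The J-domain partners of BiP fell as well, 4 of the 5 by a larger value than BiP, a difference that was not tested. Dnajb9 encodes ERdj4, a co-chaperone induced by the unfolded protein response, and was at 36.4, 25.1 and 27.7 FPKM in MOE LOW and 7.08, 8.76 and 7.83 FPKM in MOE HIGH, a fall of 1.78 (standard error 0.15, adjusted p = 4.5e-05). It was the largest fall in the ER lumen and the only one past a test against a 2-fold change. Dnajc3, which encodes P58IPK, was at 33.8, 29.7 and 32.5 FPKM and 11.9, 14.1 and 17.7 FPKM and fell by 1.10 (adjusted p = 0.00045). Dnajc10, which encodes the disulfide reductase ERdj5, was at 82.8, 78.4 and 87.8 FPKM and 38.1, 39.4 and 45.4 FPKM and fell by 1.004 (adjusted p = 0.00013). For each of these 3 genes the highest MOE HIGH library stayed under the lowest MOE LOW library. Dnajc1 encodes ERdj1, a membrane protein of the ER that is counted here with the lumen. It fell by 0.63 (adjusted p = 0.0012) from 10.8 ± 0.644 to 6.60 ± 0.228 FPKM (mean ± SD, n = 3 passages). Dnajb11, the soluble co-chaperone ERdj3, had the smallest fall, 0.38 (adjusted p = 0.013), from 71.6 ± 3.90 to 54.9 ± 3.92 FPKM, and its call was lost without passage 8 (adjusted p = 0.057) or passage 9 (adjusted p = 0.051). Hspa5, Dnajc1 and Dnajc10 lie on chromosome 2, whose tested genes had a median log2 fold change of 0.22. The other ER lumen genes lie on chromosomes 10, 12, 14 (Dnajc3) and 16, with medians of -0.14, -0.08, -0.29 and -0.13.

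**Figure D2:**
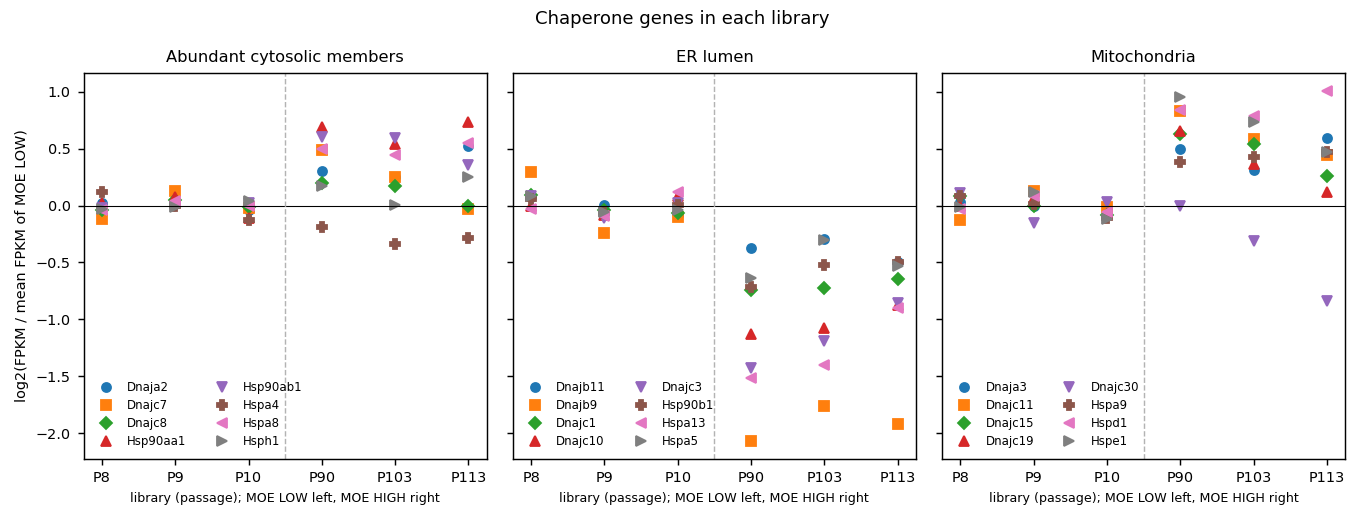
Levels of chaperone genes in each library (x axis, passage), as log2 of FPKM over the mean FPKM of MOE LOW (y axis), for 8 cytosolic genes that averaged 100 FPKM or more, other than Hspb1 and the chaperonin, for the 8 genes of the ER lumen and for the 8 mitochondrial genes. In passages 90, 103 and 113 all ER lumen points lie below 0, and all mitochondrial points except those of Dnajc30 lie above 0.

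The libraries of MOE HIGH differed in the depth of this fall. Passage 90 was the lowest of the MOE HIGH libraries for 7 of the 8 ER lumen genes, and passage 113 was the highest for 5 of them. In MOE LOW, passage 8 was the highest for 6 of the 8. Together, the ER lumen genes made up 15.3, 13.8 and 14.98% of the summed chaperone FPKM in passages 8, 9 and 10, and 7.13, 8.83 and 8.53% in passages 90, 103 and 113, with no overlap between the groups. The mitochondrial share moved the other way, from 12.2, 12.7 and 11.9% to 16.9, 16.3 and 16.4%, and the cytosolic share was 70.4, 71.3 and 71.0% and then 74.3, 73.3 and 73.5%.

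Of the 5 J-domain genes assigned to the ER membrane, 3 passed the test, all lower (60.0%, beside 32.1% of all genes tested). The median was -0.42. Dnajb14 was at 6.78, 6.77 and 6.26 FPKM and 4.20, 4.32 and 4.97 FPKM and fell by 0.47 (adjusted p = 0.007), Dnajc18 fell by 0.72 (adjusted p = 0.0017) and Dnajc16 by 0.42 (adjusted p = 0.012, and 0.051 without passage 10). Dnajb12, a partner of Dnajb14 in the turnover of membrane proteins, did not pass the test (log2 fold change -0.06, adjusted p = 0.65, with the fold change turning to 0.019 without passage 113), and neither did Dnajc14 (0.13, adjusted p = 0.25).

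In the mitochondria, Hspd1 encodes HSP60, the chaperonin barrel of the matrix, and Hspe1 its lid HSP10. Hspd1 was at 378, 408 and 370.5 FPKM in passages 8, 9 and 10 and 691, 668 and 777 FPKM in passages 90, 103 and 113, and Hspe1 at 471, 515 and 436 FPKM and 921, 789.7 and 659 FPKM. For both genes every MOE HIGH library lay above every MOE LOW library. Hspd1 rose by 0.88 (standard error 0.11, adjusted p = 0.00039) and Hspe1 by 0.72 (standard error 0.15, adjusted p = 0.0043). The ratio of Hspe1 to Hspd1, looked at after the values were seen, was 1.25, 1.26 and 1.18 in MOE LOW, then 1.33, 1.18 and 0.848 in MOE HIGH, so that passage 113 alone had less Hspe1 than Hspd1.

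Both genes lie head to head on chromosome 1. The sequence between the start of Hspe1 and 1 start of Hspd1 is shown because it holds the heat shock element, the binding sequence of heat shock factors. The motif searched was GAANNTTCNNGAA on both strands of the same windows, and other forms of the element were not counted. The motif was present in 0.662% of 27025 genes and in 4 of the 67 chaperone genes with a window (5.97%). These were Hspd1, Hspe1, Dnajb6 and Hsph1, 2 of the 5 mitochondrial and 2 of the 45 cytosolic genes. The matches of Hspd1 and Hspe1 are the same bases, counted for each gene. Capitals mark the matches, which overlap each other in the shared promoter, and the Dnajb6 promoter is shown as a gene with the same motif that did not pass the test.
Hspe1: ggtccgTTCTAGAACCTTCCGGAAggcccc
Hspd1, the same bases on the other strand: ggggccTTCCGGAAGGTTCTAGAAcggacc
Dnajb6: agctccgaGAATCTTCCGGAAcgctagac
The shared window lies at chr1:55088053-55088082 of GRCm38.p6, plus strand for Hspe1 and minus strand for Hspd1. Its matches are 72 to 89 bases before the start of Hspe1 and 127 to 144 bases before 1 start of Hspd1. In GENCODE M21 the window lies in the Hspd1 gene and in no exon. By RefSeq positions the gene bodies of Hspd1 and Hspe1 share 96 bases, which do not include the window. The Dnajb6 window lies at chr5:29735844-29735872 on the plus strand, in exons of Dnajb6 and Gm5129 in GENCODE M21, with its motif 34 to 46 bases before the RefSeq start. Dnajb6 was at 76.04, 73.4 and 69.2 FPKM in MOE LOW and 65.97, 63.8 and 74.5 FPKM in MOE HIGH, with overlapping groups (log2 fold change -0.10, adjusted p = 0.44).

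Hspa9 encodes mortalin, the HSP70 of the mitochondrial matrix and of its import motor. It was at 272, 259 and 237 FPKM and then 334, 344 and 355 FPKM, with no overlap, and rose by 0.43 (standard error 0.10, adjusted p = 0.0088). Its J-domain partner Dnaja3, TID1, rose by 0.45 (adjusted p = 0.007) from 19.5 ± 0.425 to 27.1 ± 2.62 FPKM, a call lost with the libraries scaled to equal totals (adjusted p = 0.071). Dnajc11, of the mitochondrial membranes, rose by 0.61 (adjusted p = 0.0044) from 31.7 ± 2.80 to 49.1 ± 6.84 FPKM. Dnajc15, MCJ of the inner membrane, rose by 0.47 (adjusted p = 0.011) from 36.4 ± 2.11 to 51.1 ± 6.61 FPKM. Dnajc19, of the import motor, missed the test (0.37, adjusted p = 0.053) although its groups did not overlap, and was called higher at equal totals (adjusted p = 0.032), at equal medians of ratios (adjusted p = 0.035), and without passage 113 (adjusted p = 0.0056). Dnajc30 was the only mitochondrial gene with a negative value (-0.36, adjusted p = 0.15), at 19.98, 16.1 and 11.2 FPKM in MOE HIGH, and without passage 90 it was called lower (-0.54, adjusted p = 0.033). Opposite-strand exons of Bud23 overlap Dnajc30 by 436 bases and those of Fxr1 overlap Dnajc19 by 91 bases. The libraries were stranded, and whether fragments were counted by strand is not given in the sources used here.

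The chaperonin of the cytosol is a ring of 8 different subunits, encoded by Tcp1 and by Cct2 to Cct8 with Cct6a as the common form of the sixth. All 8 fold changes were positive, with a median of 0.32. The test was passed by 5 (62.5%), beside 24.3% of all genes tested that were higher. The largest was Cct4, at 269.8, 281 and 248 FPKM in passages 8, 9 and 10 and 403, 349 and 343 FPKM in passages 90, 103 and 113, a rise of 0.45 (standard error 0.11, adjusted p = 0.011). The groups did not overlap for Cct4, nor for any other subunit but Cct5 (87.5% without overlap, beside 64.0% of all genes tested). Cct3 rose by 0.42 (adjusted p = 0.033), Cct7 by 0.40 (adjusted p = 0.042), Cct8 by 0.33 (adjusted p = 0.037) and Tcp1 by 0.27 (adjusted p = 0.046). Cct5 (0.31, adjusted p = 0.11), Cct2 (0.24, adjusted p = 0.11) and Cct6a (0.20, adjusted p = 0.13) did not pass. These calls were close to the threshold. The count of 5 became 0 without passage 10, 1 without passage 8, 9 or 90, 2 without passage 103 and 7 without passage 113, and 1 at equal upper quartiles.

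**Figure D3:**
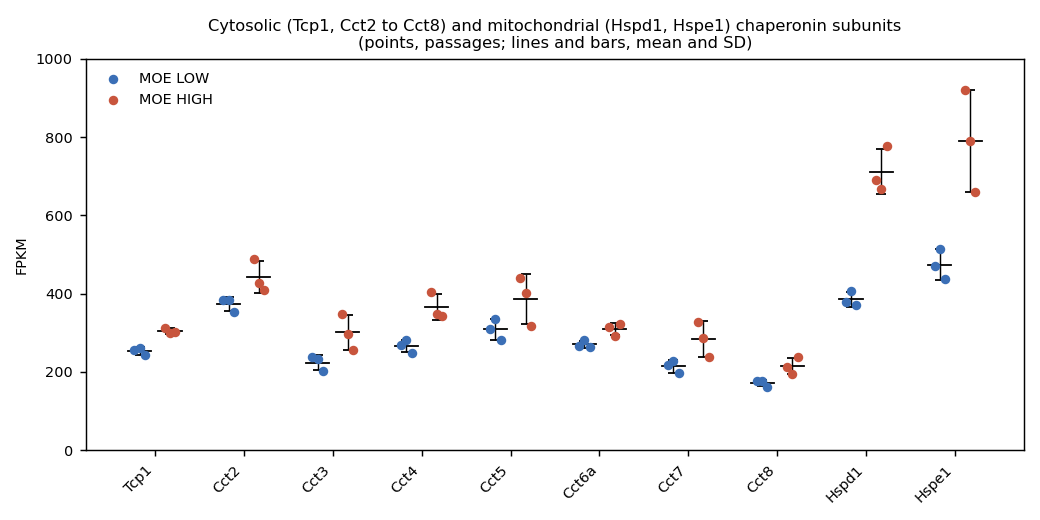
FPKM (y axis) of the 8 cytosolic chaperonin subunits and of the mitochondrial chaperonin genes Hspd1 and Hspe1 (x axis) in each passage of MOE LOW (blue) and MOE HIGH (red), with the mean and SD of each group (n = 3 passages). Among the cytosolic subunits the groups overlap only for Cct5, and the largest log2 rise was 0.45 (Cct4). Hspd1 rose by 0.88 and Hspe1 by 0.72. The lowest MOE HIGH values of Hspd1 (668 FPKM) and Hspe1 (659 FPKM) lie above their highest MOE LOW values (408 and 515 FPKM).

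The subunits kept 1 order at its ends. Cct8 was the lowest and Cct2 the highest of the 8 in all 6 libraries, and the ratio between them was 2.18, 2.19 and 2.19 in MOE LOW, then 2.29, 2.20 and 1.73 in MOE HIGH. Passage 113 had both the highest Cct8 (237 FPKM) and the lowest Cct2 (410.3 FPKM) of MOE HIGH. Passage 10 had the lowest value of MOE LOW for all 8 subunits, and passage 90 the highest value of MOE HIGH for 6 of them. Opposite-strand exons of other genes overlap Tcp1 (Acat3, 571 bases), Cct7 (Pradc1, 214 bases) and Cct8 (Usp16, 192 bases). Cct6b, the testis form of the sixth subunit, and Cct8l1 were at most at 0.106 FPKM in every library and were not tested.

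The cytosolic HSP90 genes both rose. Hsp90ab1, the constitutive form, was at 1459, 1482 and 1503 FPKM in MOE LOW and 2255, 2238 and 1902 FPKM in MOE HIGH, and Hsp90aa1, the inducible form, at 509, 527 and 464 FPKM and 809.6, 727 and 831 FPKM. The groups were apart for both. Hsp90ab1 rose by 0.52 (standard error 0.13, adjusted p = 0.011) and Hsp90aa1 by 0.66 (standard error 0.12, adjusted p = 0.002). The Hsp90ab1 call was lost without passage 8 (adjusted p = 0.065) or passage 9 (adjusted p = 0.053).

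Among the HSP70 genes of the cytosol, the constitutive Hspa8 (HSC70) was by far the most abundant, at 1660.0, 1746 and 1703 FPKM in passages 8, 9 and 10 and 2402, 2313 and 2495 FPKM in passages 90, 103 and 113. It rose by 0.50 (standard error 0.13, adjusted p = 0.011) without overlap, and the call was lost without passage 8 (adjusted p = 0.071) or passage 10 (adjusted p = 0.051). The stress-inducible pair Hspa1a and Hspa1b was near the bottom of the range and went the other way. Hspa1a was at 3.67, 3.78 and 4.04 FPKM in MOE LOW and 0.517, 0.325 and 0.646 FPKM in MOE HIGH, and Hspa1b at 5.15, 5.30 and 5.16 FPKM and 1.16, 0.941 and 0.930 FPKM. Hspa1a fell by 1.70 (adjusted p = 1.4e-05) and Hspa1b by 1.63 (adjusted p = 8.9e-06). These genes are nearly identical, so reads may have been divided between them in either way, and an opposite-strand exon of Gm20481 overlaps Hspa1a by 377 bases. Their neighbour Hspa1l, known from testis, was at 0.296, 0.589 and 0.374 FPKM and 1.57, 1.36 and 1.35 FPKM and rose by 0.78 (adjusted p = 0.00086), at levels near the lower limit of the test.

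Hspa14, an HSP70-like subunit of the ribosome-associated complex, was at 34.7, 41.6 and 34.1 FPKM in MOE LOW and 87.4, 83.7 and 66.4 FPKM in MOE HIGH, a rise of 1.08 (standard error 0.14, adjusted p = 0.00035). Its J-domain partner in that complex, Dnajc2, rose by 0.41 (adjusted p = 0.021) from 47.9 ± 2.07 to 64.3 ± 8.83 FPKM, a call lost at equal upper quartiles, without a filter and without passage 8, 9, 10, 90 or 103 (adjusted p from 0.052 to 0.076). A same-strand exon of Gm45902 shares 157 bases with Hspa14. Hspa2, best known from spermatogenesis, was at 9.43, 8.61 and 11.1 FPKM and 1.74, 2.31 and 2.90 FPKM and fell by 1.70 (adjusted p = 6.8e-05). The atypical Hspa12a was at 3.66, 2.71 and 2.40 FPKM and 0.0704, 0.0326 and 0.0448 FPKM and fell by 1.89 (adjusted p = 1.7e-05). Its relative Hspa12b, best known from endothelium, was at 0.749 ± 0.0737 and 0.784 ± 0.118 FPKM and did not pass the test (0.03, adjusted p = 0.84), and its sign turned under 4 alternatives.

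Of the HSP110 genes, Hspa4l had the largest rise among the 68 genes on the log2(FPKM + 1) scale, while the ratio of the mean FPKM was larger for the low gene Hspa1l. It was at 9.57, 11.1 and 11.3 FPKM in passages 8, 9 and 10 and 24.2, 27.9 and 35.4 FPKM in passages 90, 103 and 113, a rise of 1.36 (standard error 0.15, adjusted p = 0.00016). Its more abundant relatives did not pass the test. Hspa4 was at 152, 139 and 128 FPKM and 122, 111 and 114 FPKM (-0.26, adjusted p = 0.064), and was called lower at equal totals (adjusted p = 0.036) and at equal upper quartiles (adjusted p = 0.014). Hsph1, which encodes HSP105 and holds a heat shock element in its promoter window, was at 102, 104 and 108 FPKM and 118, 105 and 125 FPKM (0.14, adjusted p = 0.27).

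The 4 tested small heat shock genes were all lower in MOE HIGH, with a median of -1.90, beside 32.1% of all genes tested that were lower. Hspb1, which encodes the actin-associated HSP25, had the largest change of the 68 genes on the log2(FPKM + 1) scale, while the ratio of the mean FPKM was larger for the low genes Dnaja4 and Hspa12a. It was at 409, 367 and 364 FPKM in passages 8, 9 and 10 and 12.4, 7.91 and 9.97 FPKM in passages 90, 103 and 113. Its mean was 37.6-fold lower in MOE HIGH, and on the log2 scale it fell by 5.12 (standard error 0.15, adjusted p = 2.3e-07). Hspb8, which encodes HSP22, the partner of BAG3 in selective autophagy, was at 82.3, 72.3 and 65.4 FPKM and 29.7, 34.7 and 28.2 FPKM and fell by 1.22 (adjusted p = 0.00011). Hspb6, HSP20 of muscle, was at 12.1, 9.31 and 12.8 FPKM and 6.48, 7.33 and 7.36 FPKM and fell by 0.61 (adjusted p = 0.0061). Hspb2, also known from muscle, was at 9.37, 12.6 and 7.47 FPKM and 1.42, 0.425 and 0.641 FPKM and fell by 2.57 (adjusted p = 6.2e-05). The groups were apart for all 4, beside 64.0% of all genes tested.

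Several of these genes are known from muscle, and the smooth muscle markers moved with them. Acta2, the smooth muscle actin gene, was at 5145, 4022 and 4017 FPKM in MOE LOW and 6.91, 6.30 and 4.0002 FPKM in MOE HIGH, and the smooth muscle sum was highest in passage 8. Among the small heat shock genes, Hspb1 and Hspb8 were highest in passage 8, Hspb2 in passage 9 and Hspb6 in passage 10. Of the other smooth muscle markers, Cnn1 was at 552, 318 and 304 FPKM, Des at 117, 33.9 and 13.2 FPKM and Actg2 at 104, 15.8 and 10.6 FPKM in MOE LOW, while Myh11 and Synpo2 were at most at 0.591 FPKM in every library. The part of such cells in the fall of the small heat shock genes was not tested. Hspb7, known from heart and muscle, was at 1.42, 0.211 and 0.0705 FPKM in MOE LOW and listed at 0 in MOE HIGH, Hspb9 of testis was at most at 0.431 FPKM and Hspb3 was listed at 0 in every library, so these 3 were not tested. An opposite-strand exon of Cryab, a further small heat shock gene, overlaps Hspb2 by 252 bases.

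**Figure D4:**
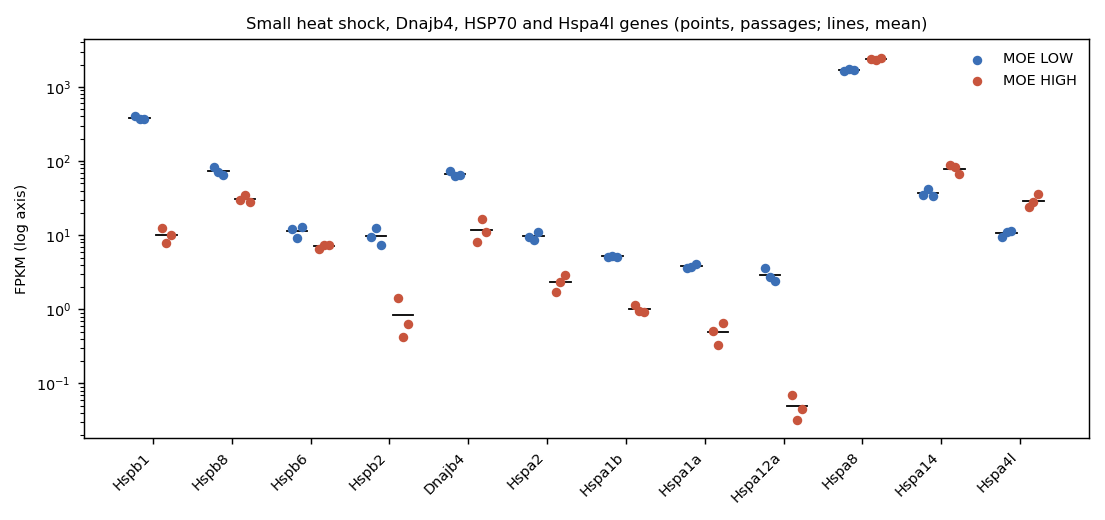
FPKM on a log axis (y axis) of small heat shock genes, Dnajb4, HSP70 genes and Hspa4l (x axis) in each passage of MOE LOW (blue) and MOE HIGH (red), with a line at the mean of each group (n = 3 passages). Hspb1 falls from 364 to 409 FPKM to 7.91 to 12.4 FPKM, whereas Hspa8, Hspa14 and Hspa4l lie higher in all MOE HIGH passages.

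Of the 36 tested J-domain genes, 10 were higher (27.8%), 13 lower (36.1%) and 13 not past the test, shares close to those of all genes tested (24.3% and 32.1%), with a median of 0.05. The DNAJB class had no higher call, with 5 of 9 lower. Among its cytosolic members, Dnajb4, related to the main HSP70 partner Dnajb1, was at 74.5, 62.3 and 65.2 FPKM and 8.02, 16.7 and 11 FPKM and fell by 2.46 (standard error 0.23, adjusted p = 6.2e-05). Dnajb5, of the same branch, fell by 1.23 (adjusted p = 4.3e-05) from 5.89 ± 0.456 to 1.94 ± 0.0529 FPKM. Dnajb1 itself, the inducible HSP40, was at 21.6, 22.97 and 21.5 FPKM and 27.5, 21.02 and 26.7 FPKM, with overlapping groups (0.17, adjusted p = 0.27).

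Of the DNAJA class, Dnaja4 was nearly lost. It was at 8.01, 7.01 and 6.67 FPKM in passages 8, 9 and 10 and 0.0300, 0.0315 and 0 FPKM in passages 90, 103 and 113, and fell by 3.01 on the log2(FPKM + 1) scale (adjusted p = 5.3e-07). Its exons overlap those of Wdr61 on the opposite strand by 1581 bases. Dnaja1, the farnesylated partner of HSC70, did not pass the test (-0.12, adjusted p = 0.47), with passage 113 above and passages 90 and 103 below all MOE LOW libraries, and was called lower without passage 113 (-0.24, adjusted p = 0.023). Dnaja2, with a like role, was at 102, 101 and 97.8 FPKM and 124, 119 and 144 FPKM and rose by 0.36 (adjusted p = 0.021), a call lost at equal totals (adjusted p = 0.16), at equal upper quartiles (adjusted p = 0.077) and without passage 8, 9 or 10 (adjusted p from 0.06 to 0.075).

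The DNAJC genes of the cytosol and nucleus serve separate processes. Dnajc9, a histone co-chaperone, was at 38.3, 41.2 and 38.4 FPKM and 69.4, 70.7 and 63.1 FPKM and rose by 0.77 (standard error 0.09, adjusted p = 0.0003). Dnajc5, the cysteine string protein of secretory vesicles, was at 29.01, 27.3 and 26.8 FPKM and 43.4, 46.3 and 49.3 FPKM and rose by 0.72 (adjusted p = 0.00044). Dnajc21, a factor of ribosome biogenesis, rose by 0.45 (adjusted p = 0.0079) from 17.4 ± 0.311 to 24.2 ± 2.38 FPKM. All 3 were higher in every MOE HIGH library than in any MOE LOW library. Dnajc12, a co-chaperone of aromatic amino acid hydroxylases, fell by 0.48 (adjusted p = 0.0054), from 0.824 ± 0.140 to 0.303 ± 0.0189 FPKM. The other tested cytosolic J-domain genes, Dnajb2, Dnajc7, Dnajc8, Dnajc13, Dnajc17 and Dnajc24, had log2 fold changes from 0.04 to 0.47, overlapping groups and no call.

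The genes of no assigned or other place were divided. Dnajc4 rose by 0.77 (adjusted p = 0.012), at 14.5, 12.7 and 12.5 FPKM and 27.5, 27.5 and 16.3 FPKM, a call lost without a filter (adjusted p = 0.073), and it lies on chromosome 19, whose 413 tested genes had a median of 0.70. Dnajc27, a small GTPase with a J domain, rose by 0.48 (adjusted p = 0.0088, and 0.063 at equal totals). Of the other genes that rose, Dnaja2 lies on chromosome 8 and Hspa14 and Dnajc5 on chromosome 2, whose tested genes had medians of 0.29 and 0.22. The part of whole chromosomes in these values was not tested. Dnajc25 fell by 0.76 (adjusted p = 0.0008) from 13.1 ± 1.33 to 7.32 ± 0.458 FPKM, and shares 348 bases of exon with Gm20503 on the same strand. Hspb11, which encodes the intraflagellar transport protein IFT25 and is a heat shock gene by name, fell by 0.66 (adjusted p = 0.0039) from 67.8, 71.5 and 69.7 FPKM to 53.5, 38.8 and 39.9 FPKM. The 9 J-domain genes under 0.5 FPKM were Dnajb3, Dnajb7, Dnajb8, Dnajb13, Dnajc5b, Dnajc5g, Dnajc6, Dnajc22 and Dnajc28. Their highest value was 0.737 FPKM, of Dnajc28 in passage 10.

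To set compartments against each other without the scaling of the libraries, 5 ratios were taken within each library and compared by exact two-sided permutation tests, in which 3 libraries against 3 cannot give a p below 0.1. The ratio of cytosolic Hspa8 to ER Hspa5 was 2.53, 2.94 and 2.84 in MOE LOW, then 6.05, 4.63 and 5.87 in MOE HIGH, a 1.98-fold higher ratio (exact permutation p = 0.1, adjusted p = 0.167 over the 5 ratios). The ratio of cytosolic Hsp90ab1 to ER Hsp90b1 was 2.17, 2.40 and 2.32 and then 5.73, 4.99 and 4.15, 2.14-fold higher (exact permutation p = 0.1, adjusted p = 0.167). In both pairs every MOE HIGH library lay above every MOE LOW library. The ratio of cytosolic Tcp1 to mitochondrial Hspd1 was 0.678, 0.641 and 0.656 and then 0.453, 0.447 and 0.390, a fall by 0.62 on the log2 scale (exact permutation p = 0.1, adjusted p = 0.167). By contrast, the groups overlapped for cytosolic Hspa8 to mitochondrial Hspa9, at 6.11, 6.75 and 7.20 and then 7.19, 6.73 and 7.03 (exact permutation p = 0.7, adjusted p = 0.7), a log2 difference of 0.07 with SDs of 0.12 and 0.05. They also overlapped for Hsp90aa1 to Hsp90ab1, at 0.349, 0.356 and 0.309 and then 0.359, 0.325 and 0.437 (exact permutation p = 0.4, adjusted p = 0.5).

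**Figure D5:**
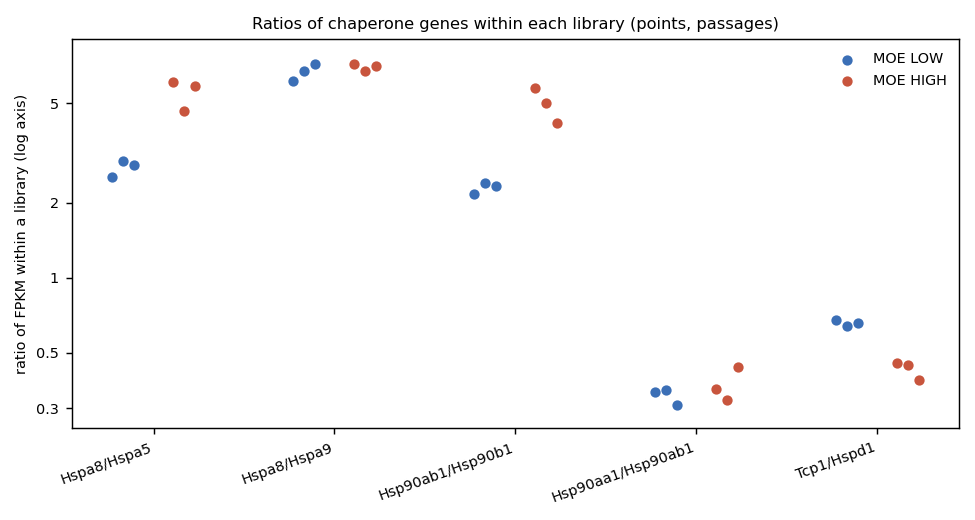
Ratios of FPKM within each library (y axis, log axis) for 5 pairs of chaperone genes (x axis), with 1 point for each passage of MOE LOW (blue) and MOE HIGH (red). The groups separate for Hspa8/Hspa5, Hsp90ab1/Hsp90b1 and Tcp1/Hspd1 and overlap for Hspa8/Hspa9 and Hsp90aa1/Hsp90ab1.

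Genes that work with these chaperones were described by the same compartments. Of 30 genes of ER folding and the unfolded protein response, 19 were lower, 1 higher and 10 not past the test. Their median was -0.54. Among all genes tested, 32.1% were lower and 24.3% higher. The disulfide isomerase gene Pdia5 fell by 1.53 (adjusted p = 4e-05) from 36.5 ± 3.72 to 12.03 ± 1.58 FPKM, and Sec63, whose J domain recruits BiP to the translocon, fell by 1.08 (adjusted p = 0.00069) from 42.6 ± 3.11 to 19.8 ± 4.58 FPKM. The genes of both kinase sensors of ER stress also fell, Ern1 (IRE1) by 1.22 (adjusted p = 0.00014) and Eif2ak3 (PERK) by 1.08 (adjusted p = 0.00048). Xbp1 fell by 0.91 (adjusted p = 0.0041). The sensor gene Atf6 did not pass the test (-0.02, adjusted p = 0.91). Nor did Atf4 (0.33, adjusted p = 0.093), Ddit3 (-0.88, adjusted p = 0.16) and Herpud1 (-0.04, adjusted p = 0.91). The only gene of the 30 called higher was Fkbp2, an ER prolyl isomerase, which rose by 1.15 (adjusted p = 0.0002) and lies on chromosome 19.

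Of 20 genes of mitochondrial folding and import, 10 were higher, 1 lower and 9 not past the test, with a median of 0.34. The shares over all genes tested were 24.3% higher and 32.1% lower. Timm44, which docks mortalin at the inner membrane channel, rose by 0.99 (adjusted p = 0.00052) from 36.3 ± 0.866 to 73.7 ± 12.6 FPKM, and the outer membrane channel gene Tomm40 rose by 0.79 (adjusted p = 0.0049). The import receptor genes Tomm20 (0.64, adjusted p = 0.0011) and Timm50 (0.62, adjusted p = 0.016) were also higher, the latter not without passage 10 (adjusted p = 0.062) or 103 (adjusted p = 0.058). Trap1, the HSP90 of mitochondria, rose by 0.35 (adjusted p = 0.024) from 50.7, 50.8 and 46.4 FPKM to 64.1, 68.4 and 56.8 FPKM, a call lost without passage 8, 9, 10, 90 or 103 or at equal upper quartiles (adjusted p from 0.054 to 0.091). Timm44 and Tomm20 lie on chromosome 8. Atf5, a transcription factor of the mitochondrial unfolded protein response, fell by 0.95 (adjusted p = 0.00063).

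Of 24 co-chaperones of cytosolic HSP70 and HSP90, 9 were higher, 2 lower and 13 not past the test, with a median of 0.19. All genes tested had 24.3% higher and 32.1% lower. Stip1, which encodes HOP, the adaptor between HSP70 and HSP90, was at 156, 170.0 and 161 FPKM and 566, 529.6 and 419.6 FPKM and rose by 1.62 (adjusted p = 3.5e-05). It lies on chromosome 19. The HSP90-bound immunophilins Fkbp5 (1.17, adjusted p = 0.00027) and Ppid (0.98, adjusted p = 0.00013) rose, as did the HSP70 exchange factor gene Bag4 on chromosome 8 (0.77, adjusted p = 0.002). Unc45a, a myosin chaperone (-0.50, adjusted p = 0.044), and Bag2 (-0.27, adjusted p = 0.048) were lower. Both calls were lost without passage 8, 9, 10 or 103 (adjusted p from 0.063 to 0.17), and that of Bag2 also without passage 90 (adjusted p = 0.075) and at equal totals (adjusted p = 0.067). Neither call held at equal medians of ratios (adjusted p = 0.078 for Unc45a and 0.11 for Bag2). Of 13 prefoldin genes and chaperonin cofactors, which deliver actin and tubulin to the chaperonin or take up its products, 12 did not pass the test. The other, Pdcl3, a phosducin-like regulator of the chaperonin, fell by 1.25 (adjusted p = 7.7e-05) from 61.1, 59.2 and 54.7 FPKM to 27.8, 21.3 and 23.2 FPKM.

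Of the tested heat shock factor genes, Hsf4 was lower and Hsf1 and Hsf2 did not pass the test. Among all genes tested, 32.1% were lower. Hsbp1, a heat shock factor binding protein gene placed on the same list, did not pass either (-0.30, adjusted p = 0.081). Hsf1, the main factor of the heat shock response, was at 27.9, 27.9 and 25.3 FPKM in MOE LOW and 40.2, 34.7 and 29.1 FPKM in MOE HIGH (0.34, adjusted p = 0.06). Its groups did not overlap, and it was called higher at equal totals (adjusted p = 0.048), at equal medians of ratios (adjusted p = 0.038) and without passage 113 (adjusted p = 0.006). Hsf2 was at 9.71, 7.65 and 9.14 FPKM and 7.33, 7.63 and 12.2 FPKM, with passage 113 above and passages 90 and 103 below all of MOE LOW (0.00, adjusted p = 0.99). Hsf4, known from the lens, fell by 0.64 (adjusted p = 0.0039) from 1.11 ± 0.207 to 0.358 ± 0.143 FPKM.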

How the data were processed

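RNA of 3 passages of MOE LOW and 3 of MOE HIGH cells had been depleted of ribosomal RNA and made into stranded libraries. The authors deposited FPKM per gene from Cufflinks and Cuffdiff 2.1.1 with UCSC annotation, after alignment by TopHat2 2.0.8b against mm10. Read counts were not analysed here, so depth in absolute terms is unknown, and the spread between passages sets the precision. The heading over the values names another passage in 5 of the 6 tables and a locus column in the other, each name being the one that comes before the right one when the names are sorted. Each table was identified by its sample record. For symbols listed more than once the entry of highest mean level was used.

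Values were tested as log2(FPKM + 1) in limma (version 3.58.1, R 4.3.3) with a variance trend, for 11621 genes that averaged 0.5 FPKM or more, with the 2 groups and no block. Benjamini-Hochberg adjustment ran over all of these genes, with a threshold of 0.05. This scale understates changes of low genes. The limma fit was tried on simulated data, with an outcome that is not given here. Ratios used exact permutation tests. Members and lists were chosen with earlier results of these data known. The rule for named genes took the chaperonin, HSP90, HSP70, HSP110, HSP60 and small heat shock genes that averaged 0.5 FPKM or more, the J-domain genes of the ER lumen and mitochondria, the 8 largest called J-domain changes per direction among genes of 5 FPKM or more without overlap, Hsf1, Hsf2, Trap1, and up to 4 called genes per direction of the partner lists. All other genes were named after their values were seen. Sequences and positions were taken from RefSeq (GRCm38.p6), exon overlaps from GENCODE M21. No promoter window was used for Dnajc12, Cct4, Hsp90aa1, Dnajc22, Hspa13, Hsp90ab1, Hspa9, Dnajc18, Dnajc5, Dnajc5b, Dnajc11, Dnajc30, Dnajc2, Hspa8 and Hspb2.

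The alternatives were 3 scalings of the libraries, a pseudocount of 0.1, no filter or a higher one (5 FPKM), a stricter threshold (0.01), testing against a change of 2-fold, blocking on the replicate number, leaving chromosomes 2, 8 and 19 out, and leaving each library out. Other steps ran in Python 3.11.15 (numpy 2.4.6, scipy 1.17.1, pandas 2.3.3).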

Additional observations from a re-analysis of the deposited data

How the results depend on the processing

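For 62 of the 68 tested genes, 971 combinations of gene and setting were compared with the main fit. Of these, 847 kept direction and side of the threshold, 108 lost the call, 11 gained it and 5 changed sign. Dnajb2, Dnajc7, Dnajc8, Dnajc13, Dnajc17 and Dnajc24, all without a call in the main fit, were left out. Any calls they gained are therefore missing from these numbers. The changes of sign were in Hspa12b (-0.0050 at equal totals, -0.021 at equal upper quartiles, and -0.0075 to 0.083 without 1 library) and Dnajb12 (-0.12 to 0.019 without 1 library). Beside these, Hsf2 turned to -0.050 at equal totals and -0.094 at equal upper quartiles, and ranged from -0.21 to 0.12 without 1 library. At an adjusted p of 0.01, 13 of all, 7 of the cytosolic and 0 of the chaperonin genes were higher. Against a 2-fold change 0 of all, cytosolic, mitochondrial and chaperonin genes were higher, with 9 of all and 1 of the ER lumen genes lower. At equal upper quartiles 10 cytosolic genes and 1 chaperonin gene were higher, with medians of 0.088 in the cytosol, -0.92 in the ER lumen and 0.36 in the mitochondria, and its library factors differed by -0.109 on the log2 scale between MOE HIGH and MOE LOW. Without a filter 2 chaperonin genes were higher. Among genes that averaged 5 FPKM or more, fewer were tested and 6 cytosolic genes were lower. Without chromosomes 2, 8 and 19 the ER lumen had 5 genes left, all lower, with a median of -1.10. Leaving out 1 library gave 16 to 29 higher and 23 to 26 lower calls in all, 8 to 20 and 12 to 13 in the cytosol, 6 to 8 lower in the ER lumen, 6 to 7 higher in the mitochondria and 0 to 7 higher in the chaperonin, and medians of 0.13 to 0.24 in the cytosol, -0.87 to -0.78 in the ER lumen and 0.43 to 0.54 in the mitochondria. Except where fewer genes were tested, the cause of these moves was not tested. Replicate numbers did not pair the samples (correlations of -0.024, -0.15 and 0.12), and not every sample correlated best with its own number. With a replicate block 26 chaperone genes were higher and 25 lower, with 17 higher in the cytosol against 16 in the main fit. Among the genes followed singly, Dnajc19 and Hsf1 gained the call, and Tcp1 and Bag2 lost it. Further cytosolic gains lay among tested genes that were not followed singly.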
